A study of Mchenga conophoros and Petrotilapia sp. 'chitimba' with 16 samples.

Results

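Solute carrier genes encode the membrane proteins that move transmitters, amino acids, sugars, ions, metals and vitamins across membranes. The members were all assembled loci that match an annotated transcript and carry a symbol beginning with slc and a digit, without the mitochondrial slc25a carriers (24 genes) and without the glutamate carrier gene slc1a2. The rule found 152 genes among 61384 loci, of which 30487 match an annotated transcript. It goes by symbol: 148 members have the symbol of a carrier, of 39 families. The other 4 (slc7a6os, slc9a3r2, slc4a1ap and slc2a4rg) are named after a carrier and are not carriers themselves. Among the 148 is slc3a2, the heavy chain that slc7 carriers pair with. One carrier kept by the rule, slc8b1, is known in mammals as the sodium-calcium exchanger of mitochondria. Many brain carriers known from mammals (slc6a4, slc17a7, slc32a1 and slc12a5 among them) matched no member by symbol and were not analysed here.

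Whole brains of 8 adult male cichlids gave 16 libraries for RNA sequencing. The fish were of 2 species, Petrotilapia sp. 'chitimba' (PC) and Mchenga conophoros (MC), which per the series' design differ in aggression towards a mirror. The groups were PC mirror (fish 12 and 23), PC control (fish 11 and 24), MC mirror (fish 9 and 21) and MC control (fish 10 and 22). Mirror fish had faced a mirror for 15 min, and all brains were taken at 90 min. Each brain gave RNA bound to ribosomes whose protein S6 is phosphorylated, recovered with an antibody (IP), and total RNA (input). S6 phosphorylation is known to rise in active neurons. Batch a (fish 9, 10, 11 and 12) and batch b (fish 21, 22, 23 and 24) each held 1 fish of every species and condition.

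As background, a carrier lets its substrate cross a membrane, in some families by coupling it to an ion gradient or to a second solute. A family number groups carriers by sequence. In brain, slc6 and slc1 carriers clear transmitters and amino acids from around synapses, slc17 and slc18 carriers fill vesicles by using the proton gradient of the vesicular proton pump, and slc4, slc9 and slc12 carriers set pH and chloride. Others feed the tissue: slc2 and slc16 carriers bring sugars and monocarboxylates, slc30, slc31, slc39 and slc40 carriers handle metals, and slc35 carriers load nucleotide sugars into the Golgi. No sequence of a member was at hand, and none is printed.

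Input libraries held 10073251 to 23594320 counts and IP libraries 1872019 to 11186928, the fewest in MC fish 9 and 10. Input levels below are CPM (each library's counts scaled to a fixed total) adjusted by TMM factors over the 8 inputs; IP values are raw counts or plain CPM. Transcript lengths were not used here, so levels are compared between fish and never between genes. Of the 152 members, 95 had a count in all 8 inputs and 6 (slc19a3, slc23a1, slc26a3, slc38a11, slc5a9 and slc6a14) had none in any library. The low-count filter kept 121 in both the fit of the 8 inputs (28742 loci) and the fit of all 16 libraries (29597 loci), and left out 31. Among the 42 members with a mean input level of 10 CPM or more, the coefficient of variation between the 4 fish of a species had a median of 22.7% in PC and 24.9% in MC. It was lowest at 4.65% for slc22a23 in PC and 1.23% for slc31a1 in MC, and highest at 75.4% for slc7a6os in PC and 61.6% for slc29a1 in MC.

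The first comparison, PC against MC in input RNA, asks whether brains of the 2 species differ in their carriers. Together the members took 1358 to 1519 CPM in PC inputs and 1588 to 1812 CPM in MC inputs on the TMM scale, so the species did not overlap; as plain CPM the ranges were 1031 to 1522 in PC and 1600 to 2172 in MC. Of 121 members tested with edgeR's quasi-likelihood test (adjusted p under 0.05 over all loci), slc38a2 was higher in PC and slc6a17, slc27a1, slc35f1 and slc17a5 were lower. Of all loci 8.16% were called higher and 2.28% lower, so the members' 1 higher call stood far below the share of all loci and their 4 lower calls near it. At an unadjusted p under 0.05 there were 26 members, against 25.5% of all loci. The members' median log2 fold change was -0.14, beside 0.03 over all loci, and 70 of 121 (57.9%) had a negative value, beside 49.1% of loci. All 4 PC fish lay below all 4 MC fish for 14 members, where 8.01% of loci did so, and above them for 7, where 12.7% did.

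**Figure D1:**
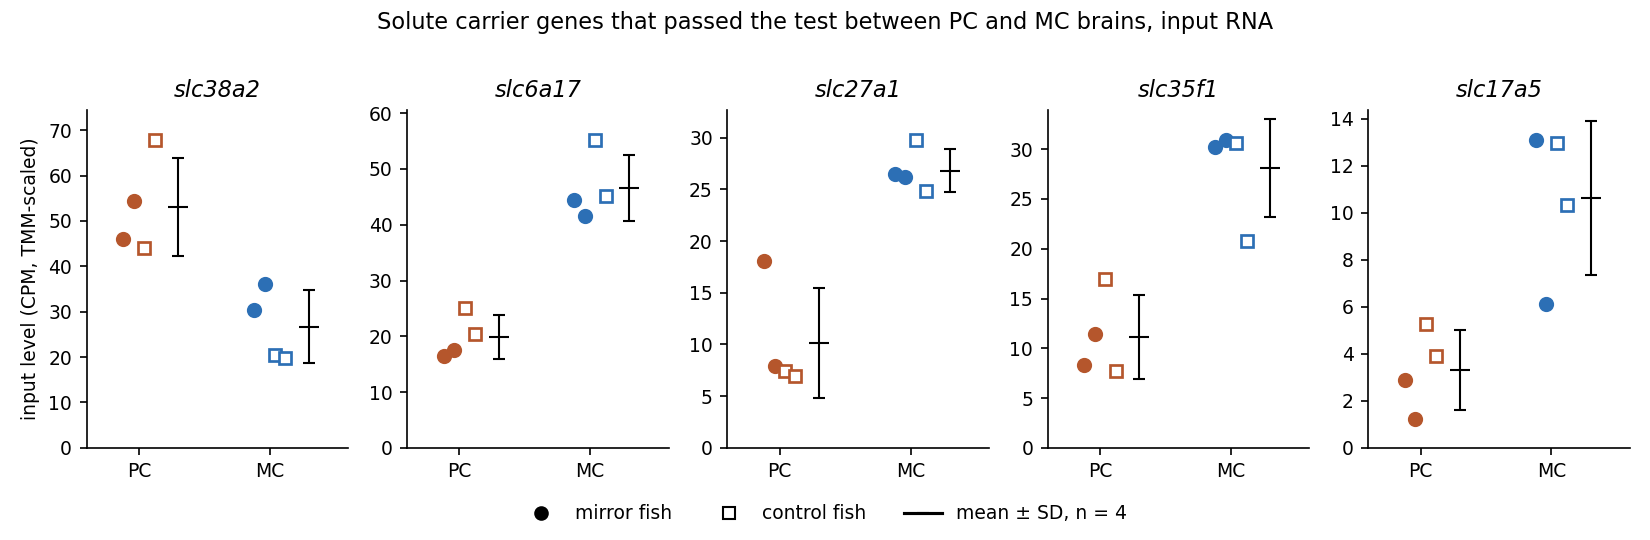
Input level in CPM (TMM-scaled, linear axes from 0) of the 5 members that passed the test between species, 1 point per fish, PC left of MC, with the mean and SD of 4 fish beside the points. In each panel the PC fish and the MC fish do not overlap, with PC on top for slc38a2 only.

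Among carriers of the synapse, slc6a17 encodes a neutral amino acid carrier known from synaptic vesicles of mammalian neurons. Its input level was 16.4 and 17.5 CPM in PC mirror fish 12 and 23 and 25.1 and 20.4 CPM in PC control fish 11 and 24, against 44.4 and 41.6 CPM in MC mirror fish 9 and 21 and 55.1 and 45.1 CPM in MC control fish 10 and 22. Every PC fish was below every MC fish, with means of 19.9 ± 3.90 CPM in PC and 46.6 ± 5.90 CPM in MC (SD, n = 4 each). The log2 fold change was -1.24 ± 0.22 (SE, edgeR adjusted p = 0.00786), and the call held without any 1 fish. It was the only 1 of the 5 calls to hold within batch a alone, and none of the 5 held within batch b alone.

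The gene slc17a5 encodes sialin, which exports sialic acid from lysosomes and has been described in synaptic vesicles. It stood at 2.90, 1.23, 5.26 and 3.93 CPM in PC fish 12, 23, 11 and 24, against 13.1, 6.10, 13.0 and 10.3 CPM in MC fish 9, 21, 10 and 22. The species were apart, though PC fish 11 and MC fish 21 lay close to each other. The log2 fold change of -1.79 ± 0.44 had an edgeR adjusted p of 0.0364, and the call was lost without any 1 fish other than MC mirror fish 21 (adjusted p from 0.0525 to 0.176).

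Among lipid and monocarboxylate carriers, slc27a1 encodes a fatty acid transport protein. It was at 18.1, 7.92, 7.47 and 6.96 CPM in PC fish 12, 23, 11 and 24, against 26.5, 26.2, 29.7 and 24.8 CPM in MC fish 9, 21, 10 and 22. PC mirror fish 12 lay well above the other 3 PC fish and still below all MC fish. The log2 fold change was -1.499 ± 0.30 (edgeR adjusted p = 0.0137), and the call held without any 1 fish.

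The gene slc35f1 belongs to the nucleotide sugar carrier family, and its substrate is not settled. It was at 8.32, 11.4, 16.9 and 7.68 CPM in PC fish 12, 23, 11 and 24, against 30.2, 30.9, 30.6 and 20.7 CPM in MC fish 9, 21, 10 and 22. MC control fish 22 was the lowest MC fish and lay above every PC fish. The log2 fold change was -1.35 ± 0.32 (edgeR adjusted p = 0.0286); without MC control fish 10 the adjusted p was 0.0688, and without PC mirror fish 12 it was 0.0577.

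The one member called higher, slc38a2, encodes a sodium-coupled carrier of glutamine and other neutral amino acids. It was at 46.0, 54.4, 44.1 and 67.8 CPM in PC fish 12, 23, 11 and 24, against 30.5, 36.2, 20.4 and 19.7 CPM in MC fish 9, 21, 10 and 22. All PC fish were above all MC fish, and the log2 fold change was 1.02 ± 0.22 (edgeR adjusted p = 0.0195; 0.0778 without PC control fish 24).

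A second assembled locus bears on this value. It is 882 bases long, lies on the other strand, and overlaps the end of slc38a2 by 4 bases; whether the counting used strand is not given in the sources used here. Its input level was 41.5, 50.1, 47.9 and 44.0 CPM in PC fish 12, 23, 11 and 24, against 95.3, 103, 96.7 and 71.6 CPM in MC fish 9, 21, 10 and 22, a log2 fold change of -0.99 ± 0.21 (edgeR adjusted p = 0.0181). The abutting locus thus moved the opposite way by nearly the same factor. The sum of both was 87.6 to 112 CPM in PC and 91.4 to 139 CPM in MC, so the summed levels overlapped. The gene's own share of that sum was 47.9% to 60.6% in PC and 17.4% to 26.0% in MC.

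**Figure D2:**
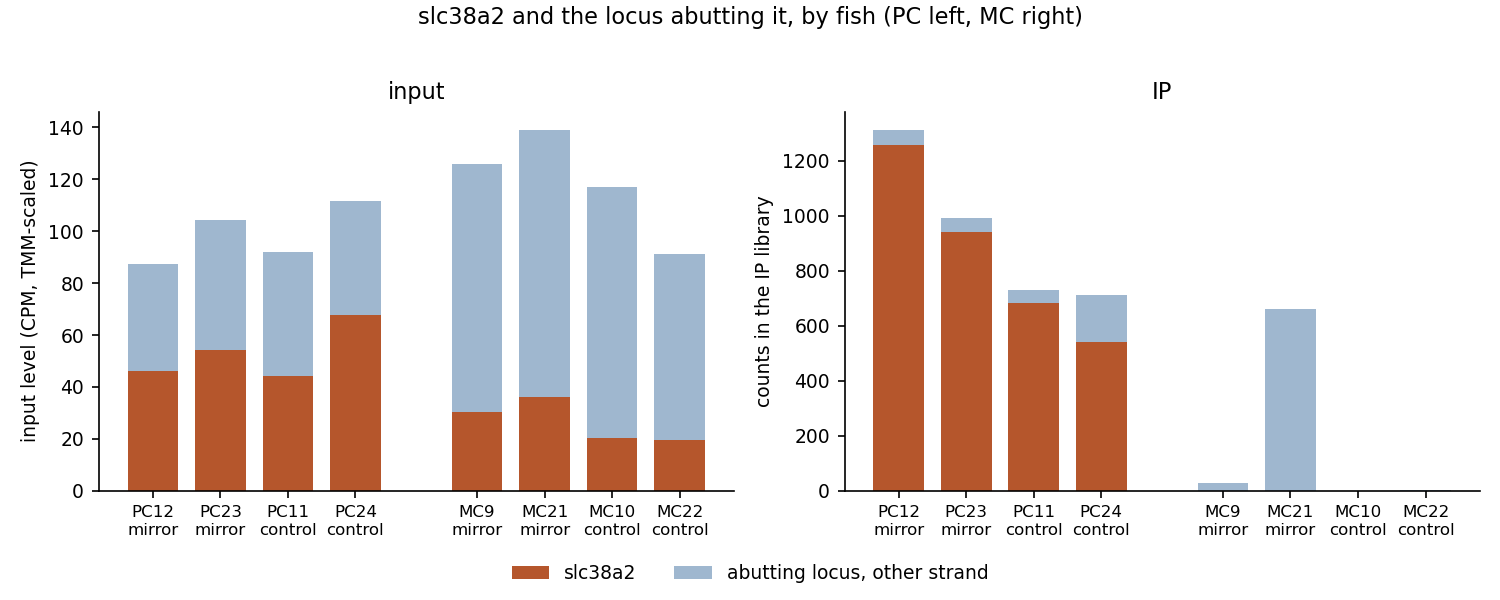
Stacked bars by fish, PC left and MC right, of slc38a2 and the abutting locus on the other strand: input level in CPM (TMM-scaled) at the left and raw counts in the IP library at the right. In input the stacks overlap between species (87.6 to 112 CPM in PC, 91.4 to 139 CPM in MC) while the slc38a2 part does not; in IP slc38a2 has counts in all 4 PC fish and none in MC.

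In all 13 members had an assembled locus on the other strand. Among them were slc24a2, whose overlapping ribosomal protein gene rpl34 averaged 11900 counts per input, and slc22a23, whose neighbour psmg4 averaged 782. For slc6a17 the other-strand locus averaged 4.25 counts per input.

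Roles were assigned by family number, so the plasma membrane transmitter group is all slc1 and slc6 genes. It also holds the vesicle carrier gene slc6a17 and amino acid carrier genes such as slc6a15 and slc1a4. Of its 11 tested genes 10 had a lower fitted value in PC (median log2 fold change -0.46). Their summed level was 243.7 to 312.3 CPM in PC and 334.0 to 428.9 CPM in MC. Within them the 8 tested slc6 genes were all negative (median -0.85), although slc6a17 alone passed the test. Their sum was 209.7 to 270.1 CPM in PC and 304.0 to 386.9 CPM in MC, and it stayed apart on plain CPM (159.3 to 270.7 in PC, 306.0 to 458.8 in MC). The count was 6 of 8 within batch b alone, 6 without MC mirror fish 9 and 7 without PC mirror fish 12, and it was 8 in the other 16 alternatives. Of these 16, an adjusted p under 0.1 is the same fit at another threshold.

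The slc6 members vary in how far they stand apart. The GABA carrier gene slc6a11 was at 159, 101, 128 and 139 CPM in PC fish 12, 23, 11 and 24, against 179, 155, 201 and 170 CPM in MC fish 9, 21, 10 and 22 (log2 fold change -0.42 ± 0.19, edgeR adjusted p = 0.212). PC fish 12 lay within the MC range, so the species overlapped. The noradrenaline carrier gene slc6a2 was at 4.30, 3.18, 3.16 and 3.75 CPM in PC, against 8.62, 15.7, 8.46 and 6.16 CPM in MC in the same order of fish, with no overlap (-1.39 ± 0.47, edgeR adjusted p = 0.103). The glycine carrier gene slc6a9 averaged 31.5 ± 6.85 CPM in PC and 43.1 ± 9.29 CPM in MC (SD, n = 4 each) and overlapped. The neuronal amino acid carrier gene slc6a15 averaged 47.0 ± 4.76 CPM in PC and 56.0 ± 13.9 CPM in MC and overlapped too. The dopamine carrier gene slc6a3 and the second glycine carrier gene slc6a5 stayed below 10 CPM in every fish. The sole transmitter-group member with a positive value was the neutral amino acid exchanger gene slc1a4 (0.30 ± 0.25), while the glutamate carrier gene slc1a1 was at -0.46 ± 0.37; neither passed.

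**Figure D3:**
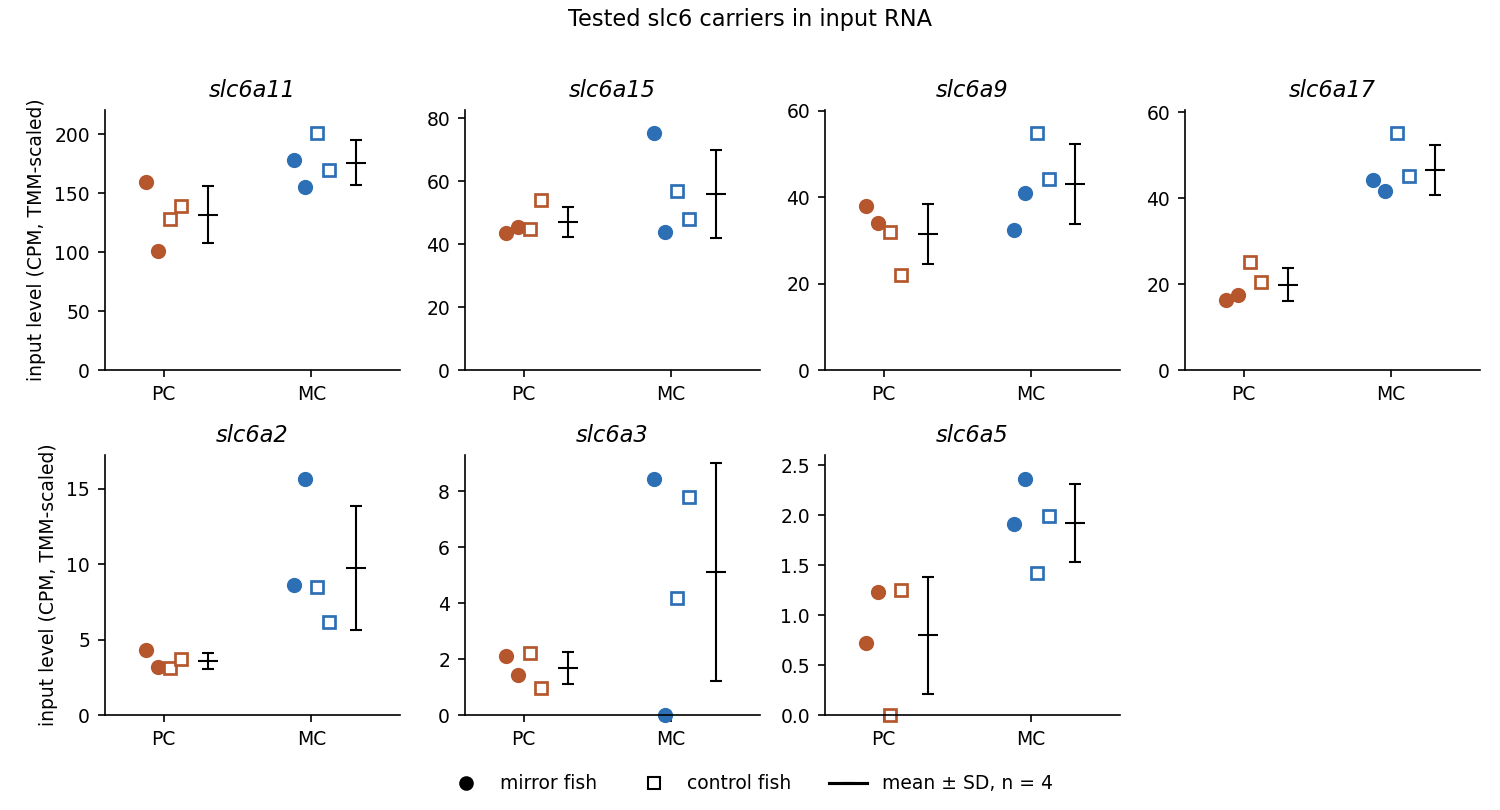
Input level in CPM (TMM-scaled, linear axes from 0) of tested slc6 carriers, 1 point per fish, PC left of MC, with the mean and SD of 4 fish. The PC mean is below the MC mean in every panel; the points of the 2 species are apart for slc6a17, slc6a2 and slc6a5.

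Among vesicular carriers other than slc17a5, the glutamate loader gene slc17a6 averaged 62.8 ± 14.0 CPM in PC and 77.6 ± 31.0 CPM in MC, a difference smaller than its spread. The monoamine loader genes slc18a2 and slc18a1 and the nucleotide carrier gene slc17a9 did not pass either. The proton pump that drives these carriers was measured through 11 subunit and accessory genes. Of these atp6v1f (2.10 ± 0.19) and atp6v1g1 (1.73 ± 0.14) were higher in PC, and atp6ap2 (-0.95 ± 0.20) and atp6v0d1 (-0.79 ± 0.21) were lower, with edgeR adjusted p from 6.58e-04 to 0.0436. Of 7 genes for monoamine and acetylcholine enzymes, ache, which breaks acetylcholine down, was lower (-1.19 ± 0.29, edgeR adjusted p = 0.0318), and of 6 for glutamate and GABA metabolism none passed.

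Monocarboxylate, dicarboxylate and lipid carriers had negative values in 10 of 12, including all 5 slc16 genes. The lactate and pyruvate carrier gene slc16a7 was at 10.3, 11.7, 18.1 and 15.2 CPM in PC fish 12, 23, 11 and 24, against 18.7, 33.9, 24.8 and 24.1 CPM in MC fish 9, 21, 10 and 22. The species did not overlap (-0.89 ± 0.28, edgeR adjusted p = 0.0786). The slc16 sum was 39.6 to 45.0 CPM in PC and 58.7 to 109 CPM in MC. The count of negative slc16 genes was 4 of 5 within batch a alone, without MC mirror fish 21 or without PC control fish 24.

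Chloride, bicarbonate and proton carriers summed to 102.8 to 143.2 CPM in PC and 149.0 to 224.9 CPM in MC. The 3 slc4 carriers were all lower in value in every alternative run, and none passed in the edgeR fit of the 8 inputs: the sodium bicarbonate cotransporter gene slc4a4 at -0.58 ± 0.24, slc4a10 at -1.06 ± 0.35 and slc4a11 at -0.72 ± 0.27 (edgeR adjusted p from 0.0942 to 0.169). DESeq2 called slc4a10 and slc4a4 lower, and edgeR called slc4a10 lower within batch a alone, with no filter, and without MC mirror fish 21, PC control fish 24 or PC mirror fish 23. The calcium exchangers, which expel calcium in exchange for sodium, summed to 55.35 to 70.45 CPM in PC and 75.23 to 78.78 CPM in MC, with slc24a2 at -0.36 ± 0.23 and slc24a4 at -0.41 ± 0.33. All 3 nucleoside carriers of slc29 had negative values, with a summed level of 19.5 to 25.7 CPM in PC and 29.2 to 45.8 CPM in MC; 2 of 3 were negative within batch b alone, without MC mirror fish 9 or without PC control fish 11.

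Metal carriers leaned the other way: 12 of 17 had a positive value and none passed. Their summed levels overlapped, at 167.2 to 194.7 CPM in PC and 126.2 to 179.1 CPM in MC. The copper importer gene slc31a1 was at 28.8, 40.9, 34.0 and 37.7 CPM in PC fish 12, 23, 11 and 24, against 20.02, 20.04, 20.48 and 19.92 CPM in MC fish 9, 21, 10 and 22. The MC fish were nearly level and all PC fish were above them (0.80 ± 0.23, edgeR adjusted p = 0.0591). The slc30 zinc exporters summed to 25.03 to 39.28 CPM in PC and 16.11 to 21.35 CPM in MC on the TMM scale; on plain CPM they overlapped (21.75 to 32.41 in PC, 16.41 to 25.32 in MC). Of the 6 tested, 4 had a positive value, and at least 4 were positive in each of the 19 alternatives. Of these 19, an adjusted p under 0.1 is the same fit at another threshold. The iron exporter gene slc40a1 was at 0.14 ± 0.26.

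The remaining groups held the calls of slc38a2 and slc35f1. Of 26 nucleotide sugar and sugar phosphate carriers 16 were positive and 10 negative; the sialic acid donor carrier gene slc35a1 was at 0.28 ± 0.24. The 5 tested slc7 genes for amino acid exchange and uptake were negative in 4, and their sum was 27.62 to 49.35 CPM in PC and 63.58 to 67.01 CPM in MC, with no overlap; 3 of 5 were negative within batch a alone or without MC mirror fish 21. Of all 13 amino acid and peptide carriers 5 were positive, with slc3a2, the heavy chain that slc7 carriers pair with, at 0.68 ± 0.26 (edgeR adjusted p = 0.151). Of 7 genes in the sugar carrier families 3 were positive, among them the iodide carrier gene slc5a5. The inositol carrier gene slc2a13 was at -0.39 ± 0.24. The folate carrier gene slc19a1 was at 11.4, 12.6, 12.7 and 9.64 CPM in PC fish 12, 23, 11 and 24, against 17.1, 18.0, 19.5 and 18.3 CPM in MC fish 9, 21, 10 and 22. These groups were apart with little spread, yet the fitted value of -0.65 ± 0.27 did not pass (edgeR adjusted p = 0.178). Among families with 3 or more tested carriers, sums of slc1, slc2, slc9, slc12, slc17, slc22, slc24, slc35, slc37, slc38 and slc39 overlapped between species. The slc35 sum, for example, was 171.3 to 197.2 CPM in PC and 176.2 to 215.0 CPM in MC. How often sums of other loci lie apart was not tested.

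Of the 121 tested members, 2 had no count in the 4 MC inputs, and the low-count member slc24a5 is among them. The pigment cell exchanger gene slc24a5 had 66 counts over the 4 PC inputs, with a count in each, and 0 over the 4 MC inputs. Against the floor of 3 counts over the MC group its PC level was at least 13.5-fold higher (edgeR adjusted p = 0.146). The pigment cell list, which includes slc24a5 itself, summed to 1.70 to 10.5 CPM in PC and 0.273 to 4.19 CPM in MC. In this list dct was at 0 in every library.

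**Figure D4:**
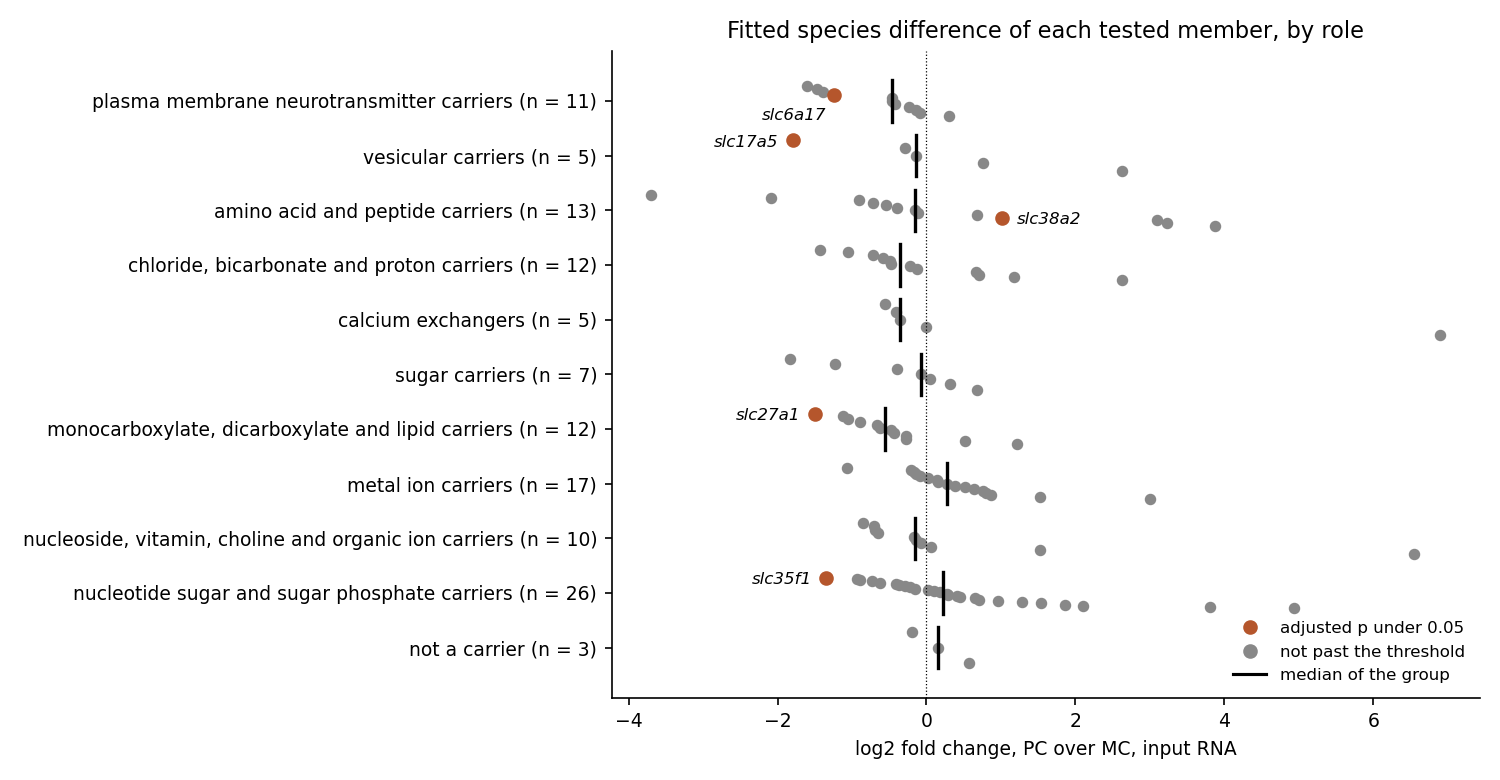
Fitted log2 fold change, PC over MC in input RNA, of each of the 121 tested members by role; vertical bars are group medians and coloured points passed the edgeR test. The transmitter group of slc1 and slc6 genes (10 of 11) and monocarboxylate and lipid carriers (10 of 12) lie mostly left of 0. Metal carriers (12 of 17) lie mostly right. The 9 points beyond 3 in either direction average under 3 CPM.

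In whole brain RNA, fewer cells of a type and less RNA per cell cannot be told apart. Some genes of the radial glia, myelin and microglia lists also passed between species, where 8.16% of all loci were called higher and 2.28% lower. Of 3 radial glia and astrocyte genes with counts, fabp7 (1.73 ± 0.15) and s100b (1.33 ± 0.14) were higher in PC. The third, the glutamate carrier gene slc1a2, was at -0.74 ± 0.26 and did not pass (edgeR adjusted p = 0.119). The list summed to 7160 to 13800 CPM in PC and 3680 to 5220 CPM in MC, with aqp4 at 0 in every library. Of 5 myelin genes mag was lower (-1.01 ± 0.18), and the list summed to 326 to 911 CPM in PC and 917 to 1230 CPM in MC. Of 6 microglia genes aif1l was higher (1.36 ± 0.25), while spi1 (-0.25 ± 0.75), cd74 (-0.38 ± 0.18) and csf1r (-0.55 ± 0.60) did not pass and the median was -0.05. The microglia sums overlapped, at 397 to 542 CPM in PC and 409 to 528 CPM in MC. Of 4 pan-neuronal genes none passed, with sums of 2420 to 3260 CPM in PC and 3030 to 3470 CPM in MC. No call was made among 7 endothelial and mural genes, 1 choroid plexus gene, 3 pigment cell genes, 2 photoreceptor and pineal genes, 1 pituitary gene, 2 muscle genes and 1 sodium pump gene; the red blood cell list had no symbol here. The part of these shifts in the carrier results was not tested, and the pigment cell genes include the member slc24a5.

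The calls depend on the tool and on single fish. DESeq2 called 5 members higher (slc24a5, slc31a1, slc37a1, slc38a2 and slc38a6) and 13 lower, beside 12.6% of all loci higher and 7.95% lower. A fit of all 16 libraries called no member and 0.0% of loci. Without MC mirror fish 9 edgeR called 9 higher and 8 lower, without PC control fish 24 it called 0 and 7, without MC control fish 10 2 and 2, without MC control fish 22 2 and 5, and without PC control fish 11 2 and 3. Over all loci these 5 fits called 5.69% to 11.1% higher and 1.12% to 3.15% lower. One member, slc7a6os, was called higher without PC control fish 11 and lower without PC control fish 24.

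Loci assembled inside introns of member genes were tested in the same fit. Of 25 such loci tested in 13 genes, 21 had a lower fitted value in PC, as did 81.9% of all 4450 loci tested within introns, and 1 passed (in slc24a4, -3.30 ± 0.88, edgeR adjusted p = 0.0477). The 25 are not spread evenly: 8 lay in slc8a3, 7 of them lower, whose own value was -0.01 ± 0.46, and 5 in slc4a11. Of 13 run-on loci next to member genes 10 had the gene's direction and 2 passed. Beside slc6a5 the run-on locus was at 6.14 to 14.7 CPM in PC and 30.3 to 41.5 CPM in MC (-1.73 ± 0.37, edgeR adjusted p = 0.0196), while slc6a5 itself was at 0 to 1.25 CPM in PC and 1.42 to 2.37 CPM in MC. Beside the iodide carrier gene slc5a5 it was at 235 to 467 CPM in PC and 63.0 to 187 CPM in MC (1.52 ± 0.19, edgeR adjusted p = 0.00171).

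The second comparison, mirror against control in input RNA, found no member past the threshold with edgeR, where 0.0104% of loci passed. At an unadjusted p under 0.05 there were 7 of 121 members, beside 4.07% of loci; DESeq2 called 1, slc50a1, beside 0.484% of loci. This gene encodes a sugar carrier of the SWEET family. It was at 6.33 and 11.2 CPM in PC mirror fish and 13.2 and 15.1 CPM in MC mirror fish, against 2.84 and 6.25 CPM in PC control fish and 0.553 and 3.26 CPM in MC control fish. Every mirror fish was above every control fish, with a narrow gap between PC mirror fish 12 and PC control fish 24. The log2 fold change was 2.12 ± 0.51 (SE), and edgeR's adjusted p over all loci was 0.774. The one member below control in every mirror fish was slc4a1ap, not a carrier, at 14.3 to 16.2 CPM in mirror fish and 18.9 to 28.6 CPM in control fish (-0.65 ± 0.24, edgeR adjusted p = 1). Such a separation was seen in 1.5% of all loci. Without MC mirror fish 21 edgeR called 2 members, slc37a1 and slc50a1, and without MC mirror fish 9 or PC control fish 24 it called 1 each, slc9a7 (lower) without fish 9 and slc7a6os (higher) without fish 24. Over all loci 0.151% were called higher without fish 21, 1.15% lower without fish 9 and 0.173% higher without fish 24.

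The next smallest p-values were those of slc37a1, slc35f6, slc4a1ap and slc7a7. The sugar phosphate carrier gene slc37a1 was at 0.814 and 10.2 CPM in PC mirror fish and 2.07 and 2.10 CPM in MC mirror fish, against 0.316 and 3.93 CPM in PC control fish and 0 CPM in both MC control fish. The species difference of the mirror effect in input gave no called member with edgeR and none with DESeq2, where edgeR called 0.0104% of loci and DESeq2 0.626%; 1 member, slc37a1, had an unadjusted p under 0.05, beside 5.02% of loci. Which members passed changed without MC mirror fish 9 or without PC control fish 24. Each of these fits leaves a group of 1 fish and is not read further here.

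The third comparison sets IP against input and asks which RNA the antibody recovered more. Few members were seen in the IP libraries: of the 152, 20 to 38 had a count in PC IP libraries and 10 to 31 in MC IP libraries, against 119 to 128 in PC inputs and 111 to 126 in MC inputs. In all, 69 members had no count in any IP library and 12 had one in at least 5 of the 8. These 12 were the glutamate loader gene slc17a6, the transmitter and amino acid carrier genes slc6a9, slc6a11, slc6a15 and slc6a17, the calcium exchanger genes slc24a2 and slc24a4, the bicarbonate carrier gene slc4a4, the copper carrier gene slc31a1 and 3 non-carriers, slc2a4rg, slc4a1ap and slc7a6os. Of tested members 38 of 121 were at 0 in all 8 IP libraries, beside 36.4% of loci.

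Detection went with the input level. For members at 3 to 10 CPM in input 11.7% of IP values were above 0, for those at 10 to 30 CPM 34.0%, and for those at 30 to 300 CPM 66.2%; over annotated loci the shares were 17.2%, 36.4% and 68.0%. Among the 42 members at 10 CPM or more, 140 of 336 IP values were above 0, with a median of 113 counts and a maximum of 3348, so a gene tended to be absent or well covered. The maximum was slc17a6 in MC control fish 22; its IP counts were 268, 127, 651 and 43 in PC fish 12, 23, 11 and 24, and 56, 0, 0 and 3348 in MC fish 9, 21, 10 and 22. Just 1 member had a count in all 8 IP libraries, slc24a4, with 54, 124, 225 and 62 in PC and 54, 55, 5 and 113 in MC in the same order of fish.

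**Figure D5:**
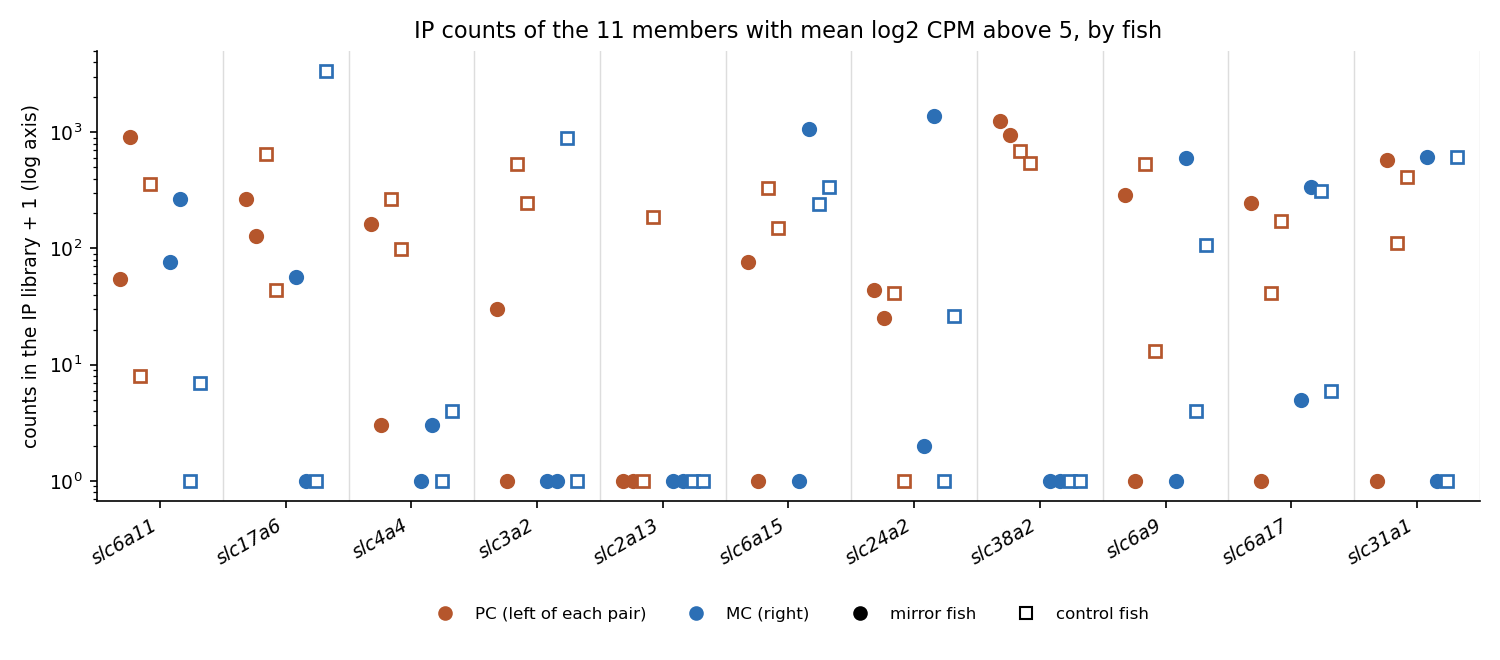
Raw counts plus 1 in each IP library (log axis) of the 11 members with a mean log2 CPM above 5, PC left and MC right within each gene, mirror fish filled and control fish open. Points at the bottom are libraries with 0 counts; slc38a2 has 540 to 1256 counts in the 4 PC fish and 0 in the 4 MC fish, and slc2a13 has counts in 1 library.

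In the fit of all 16 libraries 91 of 121 members were lower in IP and 0 were higher by edgeR; over all loci 57.4% were lower and 0.331% higher. DESeq2 called 94 lower and 0 higher, beside 52.1% and 0.574% of loci, and limma-voom 101 and 0, beside 67.2% and 0.419%. The limma-voom fit also took the shared animal into account, as a correlation between the libraries of a fish. With fish as a replicate block (a term for each fish in edgeR), which the shared animal justifies, 1 member was lower, the inositol carrier gene slc2a13, beside 0.585% of loci. Fits within a single batch also held a term for each fish, and fewer members were tested in them. Within batch a alone 38 of 87 were lower, beside 32.3% of loci, and within batch b alone 0 of 92, beside 0.0445%. Without both MC fish of batch a 0 of 132 were lower, beside 0.0106% of loci. The median fitted log2 fold change was -5.97 for members and -4.97 over all loci; with loci at 0 in every IP library put at the floor of 3 counts over the group, the medians were -5.60 and -4.20. In 41 members IP was below input in all 8 fish, where 22.1% of loci did so, and in 0 members above it in all 8, where 0.338% did.

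Counts set how far a single member can be read. Of 11 members with a mean log2 CPM above 5, 4 were lower in IP in a fit of the loci past that minimum (14.1% of those loci), namely slc2a13, slc38a2, slc4a4 and slc6a11. This contrast is the mean over the 4 groups: slc38a2 was above input in all 4 PC fish, by 2.53 times pooled, and at 0 in IP in all 4 MC fish. Over all loci slc38a2 was at -5.08 ± 0.91 (edgeR adjusted p = 0.00214; 0.158 with the replicate block). Above a mean of 6 it was 1 of 2 (11.3%), slc6a11, and above 7 there were no members. The GABA carrier gene slc6a11, which astroglia use in mammals, had 54, 910, 7 and 356 IP counts in PC fish 12, 23, 11 and 24, and 75, 268, 0 and 6 in MC fish 9, 21, 10 and 22. Over all loci its log2 fold change was -4.44 ± 1.02 (edgeR adjusted p = 0.00474; 0.0683 with the replicate block, 0.261 within batch b alone). The bicarbonate carrier gene slc4a4 had 161, 2, 265 and 98 IP counts in PC and 0, 2, 0 and 3 in MC in the same order of fish (-5.44 ± 1.15, adjusted p = 0.00338; 0.137 with the block). For slc2a13, PC control fish 24 gave 185 IP counts and the other 7 libraries none (adjusted p = 0.00304).

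Also among these 11, slc3a2 was lower over all loci (-4.48 ± 1.58, edgeR adjusted p = 0.0318) but was not called above a mean of 5. The rest did not pass over all loci: slc17a6 at -1.27 ± 1.31, slc6a15 at -1.21 ± 1.20, slc6a9 at -1.20 ± 1.37, slc6a17 at -0.71 ± 1.27, slc24a2 at -3.21 ± 1.31 and slc31a1 at 0.21 ± 1.67 (edgeR adjusted p from 0.0526 to 1). With approximate standard errors above 1 on the log2 scale, a difference of several fold could have been missed for them. Of the 42 members at 10 CPM or more in input, 3 had no IP count at all: slc4a10, slc7a4 and slc39a9. Against the floor of 3 counts over the 8 IP libraries their IP level was at least 436-fold, 293-fold and 174-fold lower than in input. These bounds cover counting error only. A value of 0 was common at this level: 66.0% of IP values of members at 10 to 30 CPM in input were 0, as were 63.6% over annotated loci. In the same contrast, where 57.4% of all loci were lower, 3 of 3 radial glia genes, 6 of 6 microglia genes and 7 of 7 endothelial genes were lower. So were 3 of 5 myelin genes and 2 of 4 pan-neuronal genes, both near the share of all loci.

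The fourth comparison asks whether IP enrichment differs between species. With edgeR no member passed, where 0.0372% of loci did; 11 of 121 had an unadjusted p under 0.05, beside 8.27% of loci. DESeq2 called 10 members higher in PC and 2 lower, beside 6.34% and 2.25% of loci, and limma-voom 1, slc38a2, beside 0.46%. In IP slc38a2 had 1256, 942, 682 and 540 counts (182, 84.2, 97.9 and 127 CPM) in PC fish 12, 23, 11 and 24, and 0 in MC fish 9, 21, 10 and 22. The PC level was at least 894-fold above the floor of 3 counts over the MC group. This bound and the next cover counting error only. For members at 30 to 300 CPM in input, slc38a2 among them, 33.8% of IP values were 0. Pooled over fish, PC had 117 CPM in IP against 46.1 CPM in input, 2.53 times as much, whereas MC had 0 in IP against 29.8 CPM in input, at least 229-fold lower. IP was thus above input in all 4 PC fish and below it in all 4 MC fish. Such a split, in this or the reverse direction, was seen in 0.145% of loci. The gene slc38a2 was also the one member with a count in every PC and no MC IP library, as 0.432% of loci were. Its edgeR adjusted p was 0.0913, and it was under 0.05 with no batch term (0.0364), a stricter count filter (0.0406) or no filter (0.0415). The gene was called in 6 of 17 alternatives, counting DESeq2, limma-voom and a threshold of 0.1. The other 11 did not call it, among them fish as a replicate block and another scaling of the libraries (RLE). The fits without 1 fish were among these 11 too. Over the 17 the log2 fold change ranged from 9.77 to 12.6.

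The abutting locus on the other strand had 57, 51, 49 and 171 IP counts in those PC fish and 27, 660, 0 and 3 in those MC fish. Summed with slc38a2, the IP levels were 190, 88.8, 105 and 167 CPM in PC and 14.4, 72.2, 0 and 0.324 CPM in MC. The sums did not overlap, though MC mirror fish 21 came close to the lowest PC fish. For the abutting locus alone the edgeR adjusted p of the species difference was 0.506.

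The next smallest p-values belonged to slc4a4, slc29a4, slc35a1 and slc6a2, with edgeR adjusted p from 0.369 to 0.379. The monoamine and nucleoside carrier gene slc29a4 had 53, 1110, 0 and 16 IP counts in PC fish 12, 23, 11 and 24 and none in MC. For slc35a1 the PC counts were 63, 403, 83 and 0, and for slc6a2 they were 0, 50, 153 and 0, again with none in MC. Each of these 3 was missing from at least 1 PC library, and the 4 MC IP libraries held 22997947 counts against 29327120 in PC. Depth was uneven within MC: the IP libraries of fish 9 and 10 held 1872019 and 2715091 counts. In those 2 libraries 10 and 13 of the 152 members had a count, against 20 to 38 in PC IP libraries.

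The fifth comparison, the mirror effect on IP enrichment, asks which RNA was recovered more or less after the mirror. No member passed with edgeR or limma-voom (0.0% of loci with edgeR), 7 of 121 had an unadjusted p under 0.05 by edgeR beside 5.26% of loci, and DESeq2 called 2 higher and 6 lower, beside 2.47% and 3.69% of loci. Of 98 members with an adjusted p in the authors' deposited table, 6 were below 0.05, beside 4.22% of all loci: slc19a1 and slc9a7 with a positive and slc7a14, slc9a8, slc3a2 and slc35a2 with a negative log2 fold change. Each rests on a few libraries. The IP counts of slc7a14 were 0 in all 4 mirror fish, against 113 and 23 in PC control fish 11 and 24 and 0 and 1503 in MC control fish 10 and 22 (-8.11 and adjusted p = 0.0179 in the authors' deposited table). Those of slc3a2 were 29, 0, 0 and 0 in mirror fish 12, 23, 9 and 21, against 535, 247, 889 and 0 in control fish 11, 24, 10 and 22. Those of slc19a1 were 34, 0, 0 and 676 in the same mirror fish and 0 in all 4 control fish. For each of these genes at least 1 library of the higher condition held no count.

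The species difference of that effect gave no called member with edgeR or limma-voom (0.0% of loci with edgeR). At an unadjusted p under 0.05 there were 7, beside 5.78% of loci, and DESeq2 called 8, beside 6.73% of loci. The authors' deposited table had 3 of 79 members under 0.05 (slc31a2 and slc16a9 among them), beside 6.63% of loci. The gene slc31a2, a relative of the copper importer gene slc31a1, had 0 and 0 IP counts in PC mirror fish, 295 and 58 in PC control fish, 0 and 355 in MC mirror fish and 0 and 4 in MC control fish. PC control fish 11 and MC mirror fish 21 thus held most of its IP counts. For slc16a9 the counts were 61 in PC mirror fish 12, 1211 in MC control fish 22 and 0 in the other libraries.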

How the data were processed

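RNA from IP and input of 8 fish was measured in 16 libraries. Per the submitters' processing notes, reads were trimmed with cutadapt, aligned with HISAT2 and assembled with StringTie; for versions, genome build, counting tool and use of strand the labels name none. The authors deposited raw counts per assembled locus, with 10073251 to 23594320 per input and 1872019 to 11186928 per IP library. They also deposited tables from DESeq2 with log2 fold changes, their standard errors (recorded as a score) and p-values per locus, in which an adjusted p listed as 100 was read as missing.

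Counts were tested with edgeR 4.0.16 in R 4.3.3 (quasi-likelihood, TMM, low-count filter on groups, Benjamini-Hochberg over all loci, threshold 0.05). The 8 inputs were fitted as 4 groups and the 16 libraries as 8, with batch as a term. A contrast between species or conditions is the mean over the other factor. The SE given with an edgeR log2 fold change is approximate. It was back-calculated as the size of the fold change over the square root of the F statistic. DESeq2 1.42.0 and limma-voom (limma 3.58.1) were alternatives, with other filters, scalings, batches alone, each fish left out and fish as a replicate block. Input and IP of a number come from the same fish; deviations of same-numbered libraries from their group means correlated at 0.508 (PC control), 0.216 (PC mirror), 0.161 (MC control) and 0.0466 (MC mirror) over 856 abundant loci. Nothing says that control and mirror fish share more than a batch.

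Members, roles and lists were chosen with earlier results of these data known. Named genes were taken from the members called, the 5 smallest p-values where fewer than 5 were called, the 2 most abundant of each role and a list of textbook brain carriers. Floors of 3 counts cover counting error only. The edgeR steps were tested on simulated counts with a single fixed dispersion and no effect of fish. The simulation did not imitate the spread of the real IP libraries, so it gives no error rate for the IP contrasts. Some members are not reported by name here; they remain in the counts and sums.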

Additional observations from a re-analysis of the deposited data

Results flagged for a closer look

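In PC inputs slc27a1 had 1 fish far from the rest: PC mirror fish 12 was at 18.09 CPM, and the other 3 lay between 6.96 and 7.92 CPM (gap over range 0.914). In MC inputs slc35f1 had 1 low fish: MC control fish 22 was at 20.74 CPM, and the other 3 lay between 30.2 and 30.9 CPM (gap over range 0.936). Of 14 groups of 4 examined 2 held such a fish. The rate of about 1 in 20 by chance assumes independent normal values, and whether 2 of 14 exceeds it was not tested.

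For slc38a2, IP was above input in all 4 PC fish, with a lowest IP level of 84.2 CPM, and below input in all 4 MC fish, where it had no count. The difference between species had an edgeR adjusted p of 0.0913.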

How the results depend on the processing

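Between PC and MC inputs, DESeq2 called 5 members higher and 13 lower, the fit of all 16 libraries 0 and 0, batch a alone 0 and 2, batch b alone 0 and 0, no filter 1 and 7, and an adjusted p under 0.1 2 and 10. Over all loci DESeq2 called 12.6% higher and 7.95% lower, and the fit of all 16 libraries 0.0%. Batch a alone called 4.06% and 0.863% of loci, and batch b alone 0.842% and 0.179%. No filter called 6.46% and 2.31% of loci, and an adjusted p under 0.1 11.2% and 4.46%. Leaving out each fish gave 0 to 9 higher and 2 to 8 lower. For the mirror contrast in input DESeq2 and no filter each called 1 member. DESeq2 called 0.484% of loci, and no filter called 0.2% higher and 0.314% lower. Calls also changed when single fish were left out, here and for the species difference of this contrast. Lower in IP than in input were 38 members in batch a alone, beside 32.3% of loci, and 0 in batch b alone, beside 0.0445%. With fish as a replicate block 1 was lower, beside 0.585% of loci. The counts also changed without both MC fish of batch a, a fit chosen after seeing the data, and without single fish. Among loci above a mean log2 CPM of 7 no member was tested; above 6 there was 1 call and above 5 there were 4. For the species difference of IP enrichment DESeq2 called 12, beside 6.34% of loci higher and 2.25% lower. With no batch term, the 10-count filter, no filter, limma-voom or an adjusted p under 0.1, 1 member was called higher each time. Those settings called 0.0522% to 0.419% of loci higher. DESeq2 called 8 members for the mirror effect on IP, beside 2.47% of loci higher and 3.69% lower. It called 8 for the species difference of that effect, beside 6.73% of loci. With the replicate block the other IP contrasts called 0 members, as without it. For the 5 called members (PC against MC), slc38a2 in the species difference of IP, and slc6a11, slc4a4, slc2a13 and slc38a2 in IP against input, no alternative run changed the sign. This was largely set beforehand. The 5 did not overlap between species, slc6a11, slc4a4 and slc2a13 were below input in all 8 fish, and slc38a2 had no IP count in MC. An adjusted p under 0.1 is also the main fit at another threshold. The member slc7a6os was called higher without PC control fish 11 and lower without PC control fish 24. A fit without 1 fish leaves a group of 1, assumed to vary like the others, and tests more loci. The cause of these changes was not tested. IP depth and the many IP values of 0 limit every IP contrast.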
